A study of Homo sapiens with 12 samples.

Results

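The comparison described here asked what the compound SB-3CT changed in the RNA of interferon-treated melanoma cells. It set 3 samples of A375 cells that received SB-3CT and IFNγ together for 24 h (SB-3CT + IFNγ) against 3 samples that received IFNγ alone for 24 h (IFNγ), 6 of the 12 samples in the series. The other 6 samples, 3 untreated (Control) and 3 given SB-3CT alone for 24 h, gave the same genes' values without IFNγ. They also entered the scaling of the values, which was set over all 12 samples, and the further comparisons below that name them. A375 is an established human malignant melanoma line, and all samples come from it. The labels name neither separate cultures nor the doses of either agent, so the p-values measure the spread between these samples, which may be technical. The 4918 genes analysed run alphabetically, A1BG first and FAM46B last. In bulk RNA such as this, a change in the RNA per cell and a change in the make-up of the cell population cannot be told apart.

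SB-3CT blocks the gelatinases MMP2 and MMP9, zinc enzymes that cleave extracellular matrix. IFNγ is a cytokine of T and NK cells that acts through JAK kinases, and it raises antigen presentation, antiviral sensors, chemokines and the checkpoint ligand PD-L1 in tumour cells. Cells under nutrient, endoplasmic reticulum or oxidative stress use other programmes. In the integrated stress response the factor ATF4 switches on amino acid synthesis genes and the factor CHOP. In the antioxidant response the factor NRF2 switches on reductases that detoxify reactive compounds.

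The deposited values are log2(FPKM + 1), where FPKM is the number of sequenced fragments of a gene relative to its transcript length and to all mapped fragments. They were compared as deposited and again after median-ratio scaling, which divides the FPKM of a sample by a factor. That factor is the median over genes of the sample's value relative to the geometric mean over all 12 samples. The factors were 0.987 to 1.09 in the IFNγ samples and 0.865 to 0.874 in the SB-3CT + IFNγ samples, so scaling raised log2 changes by a median of 0.23 over the 3145 genes with a mean of at least 1 FPKM. A gene was called at a Benjamini-Hochberg adjusted p under 0.05 (limma), and it is described as having risen or fallen only where it was called in the same direction on both scales. Summed FPKM was 122601 to 124670 in the IFNγ samples and 128299 to 129692 in the SB-3CT + IFNγ samples, and 313 to 458 and 438 to 485 genes were at 0. Relative depth, read from the steps of the lowest values, was 87.1% to 150% and 91.5% to 141% of the mean of the Control samples.

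Promoters of genes of the stress response and of DNA replication are shown first where they hold the textbook binding letters of ATF4 with C/EBP partners or of E2F. The C/EBP-ATF element, TGATGNAA on either strand, was found in the RefSeq promoters (250 bases before to 50 after the start; GRCh38.p14 table) of 2 of the 4 stress response genes that rose and have a promoter entry, against 1.64% of the 3845 promoters matched. It was also in 3.02% of the promoters of all genes that rose, 0.64% of those of genes that fell and 2 of 8 of those of mitosis genes that rose. The stress response genes with the element are ASNS at chr7:97501761-97501808, minus strand, and CHAC1 at chr15:41245440-41245487, plus strand, both in hg19, with the element in capitals, 5′ to 3′ on the strand of the gene. Counted from the RefSeq start as 0, the element begins at -68 in ASNS and at -209 in CHAC1, where it reads on the opposite strand.
ASNS: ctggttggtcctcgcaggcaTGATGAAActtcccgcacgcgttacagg
CHAC1: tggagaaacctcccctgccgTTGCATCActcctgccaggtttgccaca
Both windows lie inside the widest GENCODE span of the gene, which takes in transcripts with earlier starts. The E2F element, TTTNGCGC on either strand, was found in 4 of the 8 DNA replication genes that fell and have a promoter entry, against 2.78% of all promoters and 4.32% of the promoters of all genes that fell. These were CDC6 at chr17:38444118-38444145, plus strand, DCK at chr4:71859367-71859394, plus strand, DNMT1 at chr19:10305624-10305651, minus strand, and DTL at chr1:212209062-212209089, plus strand, again with the element in capitals. From the RefSeq start as 0, it begins at 7 in CDC6, 21 in DCK, -2 in DNMT1 and -8 in DTL. CDC6 and DNMT1 are 2 of the 3 replication genes whose fall was not called with the trend in transcript length removed.
CDC6: gaacgctgtggccattcggaTTTGGCGC
DCK: gtgtcctcagctgcctccgcGCGCCAAA
DNMT1: gcccctccccatcggtttccGCGCGAAA
DTL: atcagagagcgtgacgtcagTTTGGCGC
The E2F element was also in 4.53% of the promoters of genes that rose, and the antioxidant response element, TGACNNNGC on either strand, was in 0 of 7 reductase genes that rose, 15.8% of all genes that rose and 13.7% of all promoters. A match is a description of these letters and not of a bound site. The elements were not counted apart in list members that were not called, so no link between a match and a change was tested.

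Adding SB-3CT to IFNγ raised 314 genes (6.38% of 4918) and lowered 760 (15.5%) on both scales. As deposited, 315 genes were higher (6.41%) and 1547 lower (31.5%), and after scaling 811 were higher (16.5%) and 760 lower (15.5%). No gene was called in opposite directions on the 2 scales: 787 genes were lower only as deposited and 497 higher only after scaling. Most changes were small, with a median log2 change of 0.37 as deposited and 0.61 after scaling among the genes that rose, and -0.56 and -0.36 among those that fell. Only 45 of the genes that rose and 53 of those that fell changed more than 1.5-fold on both scales, and 2 rose and 0 fell more than 2-fold. These are folds of FPKM + 1, which understate the change of genes at low FPKM. Of the genes that rose, 61 (19.4%, beside 9.21% of all genes) were called lower with IFNγ against Control on both scales. Of those that fell, 137 (18%, beside 8.38%) were called higher. Both counts share the IFNγ samples with the main comparison, and a rise here need not be a rise above untreated cells. Leaving out 1 sample gave 196 to 331 genes higher and 425 to 693 lower on both scales, with 196 and 202 higher without IFNγ replicate 3 and SB-3CT + IFNγ replicate 3, and 445 and 425 lower without IFNγ replicate 1 and IFNγ replicate 3.

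**Figure D1:**
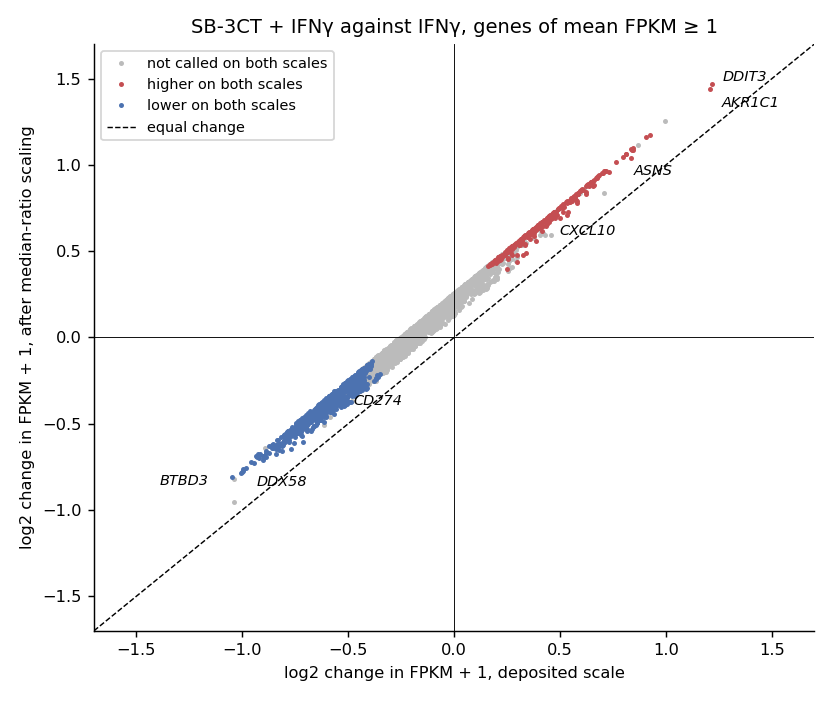
Each point is a gene with a mean of at least 1 FPKM over the 6 samples, with its log2 change in FPKM + 1 as deposited on the x axis and after median-ratio scaling on the y axis. Nearly all points lie above the dashed line of equal change, by a median of 0.23, and 314 genes were called higher (red) and 760 lower (blue) on both scales among all 4918 genes, including those under 1 FPKM that are not drawn.

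The genes that rose were short and those that fell were long. Median canonical transcript length (GENCODE) was 1219 nucleotides for genes that rose, 5274.5 for genes that fell and 2953 for all genes, with medians of 5, 15 and 9 exons and 48.9%, 42.1% and 49.1% GC. Among genes of at least 1 FPKM, 50% of the 226 with transcripts under 1000 nucleotides rose and 0.885% fell, whereas 1.84% of the 489 over 6000 nucleotides rose and 49.7% fell. Across 3123 genes the change and log2 length had a Pearson correlation of -0.60 as deposited and -0.62 after scaling, a description, since genes of the same samples are not independent and length enters every FPKM. Each list below is therefore also given with the length trend of each sample removed. On this length-removed scale 183 of the 314 genes remained higher (3.72% of all genes) and 340 of the 760 lower (6.91%), 130 and 420 were not called, and 1, DPM3, was called lower. The part of length in the individual changes was not tested further. Shares of the lists below are read beside 6.38% of all genes higher and 15.5% lower, and a share near these is no result about a list. The lists were chosen with earlier results of these data known. A share above that of all genes may therefore come in part from the choice of members, and it is a description, not a test. All genes include 1773 with a mean under 1 FPKM, of which 20 rose and 88 fell, and most lists hold few such genes. Of the 3145 genes of at least 1 FPKM, 294 rose and 672 fell. These are larger shares, so a list share a little above 6.38% or 15.5% is no result either. Lists of short or long transcripts are also to be read beside the shares of their length class.

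**Figure D2:**
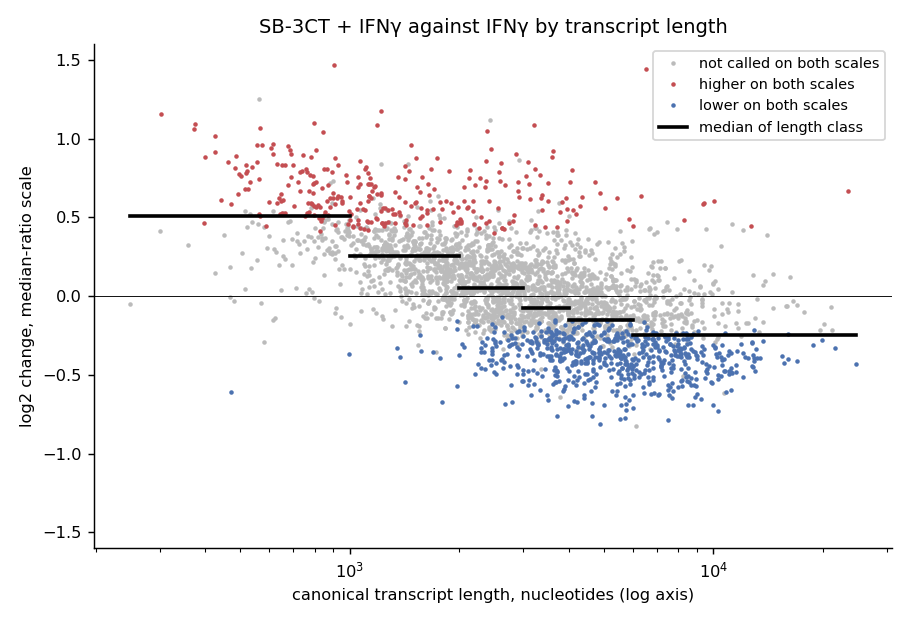
Each point is a gene with a mean of at least 1 FPKM, with canonical transcript length on a log x axis and the log2 change after median-ratio scaling on the y axis, red where it rose and blue where it fell on both scales, and black bars at the median of each length class. The class medians go from 0.51 under 1000 nucleotides to -0.24 over 6000 nucleotides.

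DDIT3, which encodes CHOP, a transcription factor of the stress responses (chr12:57910371-57915520 in hg19), had the largest rise, where genes of at least 1 FPKM without overlap between groups were ranked by the smaller of their 2 changes. It measured 19.1, 19.3 and 19.6 FPKM in the 3 IFNγ samples and 45.1, 49.1 and 44.7 FPKM in the 3 SB-3CT + IFNγ samples. DDIT3 had a log2 change of 1.22 ± 0.054 (SE; limma, adjusted p = 0.000232) as deposited and 1.47 ± 0.058 (adjusted p = 0.000256) after scaling. AKR1C1, an aldo-keto reductase that reduces steroids and reactive carbonyls (chr10:5005445-5025475), measured 4.94, 4.95 and 4.02 FPKM in the 3 IFNγ samples and 12.3, 12.5 and 11.1 FPKM in the 3 SB-3CT + IFNγ samples. AKR1C1 had a log2 change of 1.21 ± 0.092 (SE; limma, adjusted p = 0.00176) as deposited and 1.44 ± 0.091 (adjusted p = 0.00154) after scaling. In both genes the lowest sample with SB-3CT was more than 2-fold above the highest sample without it. The relatives AKR1C2 (0.84 and 1.09 on the 2 scales) and AKR1C3 (0.84 and 1.09) and the biliverdin reductase BLVRB (0.85 and 1.10) were also among the 12 largest rises. AKR1C1, AKR1C2 and AKR1C3 are close copies, so how reads were shared among them is uncertain.

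ATP5I, a subunit of the mitochondrial ATP synthase, went from 322, 462 and 319.99 FPKM with IFNγ to 647, 735 and 657 FPKM with both agents (log2 changes 0.90 and 1.16). Pairs of values given this way are log2 changes as deposited and after scaling, in that order. C17orf89, an assembly factor of respiratory complex I, changed by 0.81 and 1.06, and BOLA2B, a BolA protein of iron-sulphur metabolism with a near-identical copy, by 0.84 and 1.09. BEX2 changed by 0.83 and 1.04 and C19orf33 by 0.81 and 1.06. ASNS, which makes asparagine and is a classic ATF4 target, rose from 41.6, 44.9 and 41.9 FPKM with IFNγ to 72.5, 77.6 and 74.8 FPKM with both agents. ASNS had a log2 change of 0.80 ± 0.053 (SE; limma, adjusted p = 0.00139) as deposited and 1.05 ± 0.071 (adjusted p = 0.0016) after scaling. The cancer-testis gene CT45A1 spread widely with IFNγ alone, at 32.4, 44.9 and 21.7 FPKM, and stood at 57.4, 63.2 and 62.2 FPKM with both agents (0.92 and 1.17). Of these 12, the call of CT45A1 was lost on the deposited scale without IFNγ replicate 1, or SB-3CT + IFNγ replicates 1, 2 or 3 (adjusted p up to 0.0808), and after scaling without IFNγ replicate 1, or SB-3CT + IFNγ replicates 1, 2 or 3 (adjusted p up to 0.0705). The other 11 held on both scales with each sample left out.

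BTBD3, a BTB-domain protein (chr20:11871371-11907257), had the largest fall. It measured 25.6, 20.1 and 22.1 FPKM in the 3 IFNγ samples and 9.92, 10.8 and 10.3 FPKM in the 3 SB-3CT + IFNγ samples. BTBD3 had a log2 change of -1.05 ± 0.09 (SE; limma, adjusted p = 0.00194) as deposited and -0.81 ± 0.065 (adjusted p = 0.00193) after scaling. EPHA3, an ephrin receptor tyrosine kinase, fell from 12.5, 12.2 and 11.9 FPKM with IFNγ to 5.11, 5.47 and 6.3 FPKM with both agents (log2 changes -0.996 and -0.77). F2R, the thrombin receptor PAR1, fell from 24.5, 21.2 and 21.4 FPKM with IFNγ to 10.5, 11.6 and 9.97 FPKM with both agents (-0.999 and -0.76). DDX58, the cytosolic viral RNA sensor RIG-I (chr9:32455300-32526206), fell from 13.4, 11.5 and 13.6 FPKM with IFNγ to 5.72, 5.52 and 6.8 FPKM with both agents. DDX58 had a log2 change of -0.98 ± 0.097 (SE; limma, adjusted p = 0.00207) as deposited and -0.76 ± 0.086 (adjusted p = 0.00243) after scaling. Its relatives in antiviral defence, the helicase DDX60 (-0.90 and -0.71) and the double-stranded RNA kinase EIF2AK2 (-0.93 and -0.69), were also among the 12 largest falls.

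Most of the remaining large falls were of genes for chromosome copying and division and for translation. ATAD2, a bromodomain ATPase of replicating chromatin, changed by -1.001 and -0.78, CLSPN, the checkpoint adaptor Claspin, by -0.90 and -0.69, and FAM111A, a protease that protects replication forks, by -0.92 and -0.70. CENPF, a kinetochore protein, changed by -0.95 and -0.73 and EIF5B, which joins the ribosomal subunits, by -0.96 and -0.72. ANKFY1, an endosomal adaptor, varied between samples, at 12.9, 10.3 and 11.9 FPKM with IFNγ and 3.92, 4.83 and 7.73 FPKM with both agents (-1.01 and -0.79). The call of ANKFY1 was lost on the deposited scale without IFNγ replicate 1 (adjusted p up to 0.055), and after scaling without IFNγ replicates 1, 2 or 3, or SB-3CT + IFNγ replicates 1 or 2 (adjusted p up to 0.114). With the length trend removed, all 12 rises kept their call, as did 11 of the 12 falls, the exception being ANKFY1 at -0.54 (adjusted p = 0.098).

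**Figure D3:**
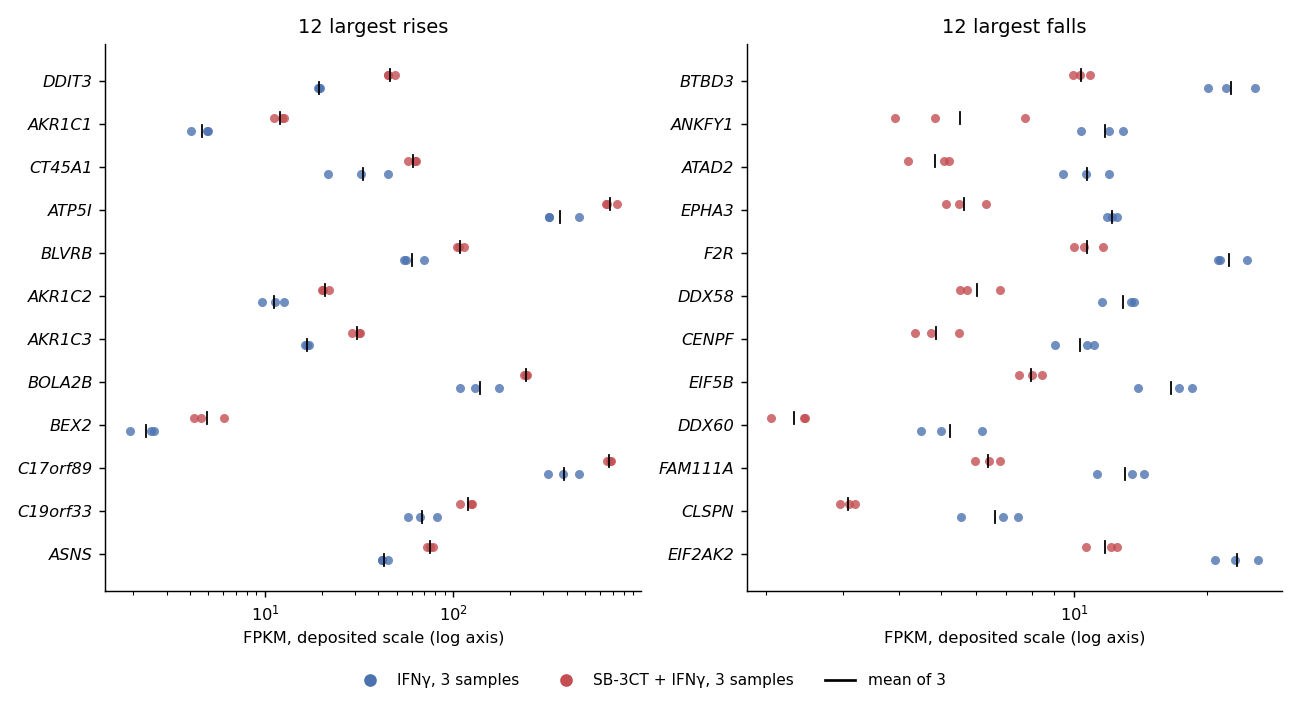
FPKM on the deposited scale (log x axis) of the 12 largest rises and the 12 largest falls, 1 point per sample, IFNγ in blue and SB-3CT + IFNγ in red, with the mean of 3 as a black bar. No gene of the 24 has overlapping groups, as the naming rule required.

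Of the genes of the integrated stress response 5 of 21 measured rose (23.8%, beside 6.38% of all genes) and 1 fell, with a median log2 change of 0.032 as deposited and 0.24 after scaling, beside -0.20 and 0.021 over all genes of at least 1 FPKM. Beside DDIT3 and ASNS these were ATF4, the factor at the head of the response, EIF4EBP1, a brake on translation initiation, and CHAC1, which degrades glutathione. CHAC1 (chr15:41245160-41248710) measured 10.6, 12 and 10.4 FPKM in the 3 IFNγ samples and 16.8, 17.4 and 18.6 FPKM in the 3 SB-3CT + IFNγ samples. CHAC1 had a log2 change of 0.64 ± 0.073 (SE; limma, adjusted p = 0.00209) as deposited and 0.88 ± 0.089 (adjusted p = 0.00242) after scaling. EIF4EBP1 rose from 309.6, 357 and 332 FPKM with IFNγ to 422, 400.2 and 418 FPKM with both agents (0.31 and 0.57). The gene that fell was EPRS, the glutamyl-prolyl-tRNA synthetase (-0.65 and -0.41). With the length trend removed DDIT3, ASNS and CHAC1 remained higher and EPRS lower. ATF4 and EIF4EBP1 were then not called, with EIF4EBP1 at 0.064 (adjusted p = 0.362). The rises were 4 to 5 with 1 sample left out. The falls were 2 without SB-3CT + IFNγ replicate 1.

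Of 28 folding and quality-control genes of the endoplasmic reticulum 2 rose (7.14%, beside 6.38% of all genes), 7 fell (25%, beside 15.5%) and 19 were not called, with a median of -0.28 as deposited and -0.075 after scaling. The list's median transcript was 3547 nucleotides, and 24.9% of genes of at least 1 FPKM from 3000 to 4000 nucleotides fell. DNAJB9, a luminal co-chaperone, rose from 6.46, 5.65 and 5.68 FPKM with IFNγ to 7.9, 7.88 and 8.18 FPKM with both agents (0.38 and 0.60), and the other gene that rose was CRELD2. The mannosidase-like EDEM3 (-0.67 and -0.45), the chaperone and kinase inhibitor DNAJC3 (-0.62 and -0.40) and the oxidase ERO1B (-0.58 and -0.35) fell. After length removal both rises and 3 of the 7 falls, EDEM3 and DNAJC3 among them, kept their call, and the rises were 1 without IFNγ replicate 3, or SB-3CT + IFNγ replicates 1 or 2. Of 11 aminoacyl-tRNA synthetase genes 1 rose (9.09%, beside 6.38% of all genes), the scaffold EEF1E1 (0.30 and 0.55), and 2 fell (18.2%, beside 15.5%), EPRS among them. With length removed 2 falls and 0 rises remained. The rise of EEF1E1 also depended on single samples. The call of EEF1E1 was lost on the deposited scale without IFNγ replicates 1 or 3, or SB-3CT + IFNγ replicates 2 or 3 (adjusted p up to 0.108), and after scaling without IFNγ replicate 3, or SB-3CT + IFNγ replicate 3 (adjusted p up to 0.0588). The list's rises were 0 without IFNγ replicates 1 or 3, or SB-3CT + IFNγ replicates 2 or 3, and 2 without IFNγ replicate 2, or SB-3CT + IFNγ replicate 1. Its falls were 1 without IFNγ replicates 1 or 3, or SB-3CT + IFNγ replicates 1 or 3.

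Of 30 genes for reductases and other proteins of xenobiotic metabolism 8 rose (26.7%) and 2 fell, and all 10 calls held with the length trend removed. The median was 0.11 as deposited and 0.36 after scaling. After AKR1C1 the next was AKR1B10, an aldo-keto reductase of retinal and aldehydes, which was close to 0 with IFNγ alone, at 0.0406, 0.325 and 0.253 FPKM, and at 1.29, 1.07 and 1.33 FPKM with both agents. AKR1B10 had a log2 change of 0.89 ± 0.098 (SE; limma, adjusted p = 0.00207) as deposited and 1.01 ± 0.10 (adjusted p = 0.00242) after scaling. BLVRB, which reduces biliverdin and flavins, rose from 54.7, 70.05 and 56 FPKM with IFNγ to 114, 104 and 107 FPKM with both agents (0.85 and 1.10). AKR1C2 rose from 9.57, 11.3 and 12.6 FPKM with IFNγ to 20.2, 20.4 and 21.7 FPKM with both agents. AKR1C3 rose from 16.3, 16.8 and 17.1 FPKM with IFNγ to 28.8, 31.9 and 31.5 FPKM with both agents. In Control AKR1C2 stood at 16.2, 19 and 15.9 FPKM and AKR1C3 at 27.5, 28.8 and 29.3 FPKM. The genes that fell were AHR, the receptor for dioxin-like ligands, from 12.9, 11.1 and 12.5 FPKM with IFNγ to 6.58, 7.53 and 7.03 FPKM with both agents (-0.71 and -0.48). CAT, the catalase that removes hydrogen peroxide, fell from 27, 25.6 and 25.1 FPKM with IFNγ to 16.5, 18.4 and 16.4 FPKM with both agents (-0.57 and -0.33). CYP1A1, a target of AHR, was among the genes that rose. The count of rises was 7 to 9 with 1 sample left out.

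The subunits of the respiratory chain and ATP synthase gave the most one-sided list: 23 of 27 rose (85.2%) and 0 fell. The median was 0.47 as deposited and 0.73 after scaling. The genes that rose encode subunits of ATP synthase and cytochrome c oxidase, and CYCS. Respiratory subunits with symbols after FAM46B were not analysed, so the list is not the whole chain. ATP5H, of the ATP synthase stalk, rose from 244, 309 and 259 FPKM with IFNγ to 423, 442 and 435 FPKM with both agents (0.68 and 0.94). COX7B, of cytochrome c oxidase, rose from 324, 441 and 360.4 FPKM with IFNγ to 556, 610.1 and 628 FPKM with both agents (0.68 and 0.94). The electron carrier CYCS rose from 50.4, 50.7 and 50.4 FPKM with IFNγ to 62.1, 71.6 and 63 FPKM with both agents (0.37 and 0.62). The 27 transcripts are short, with a median of 756 nucleotides. Among all genes of at least 1 FPKM with transcripts under 1000 nucleotides, 50% rose and 0.885% fell. Of the 23 rises 11 remained called with the length trend removed, with a median change of 0.23 over the 27. The count was 14 without IFNγ replicate 3, and 15 without SB-3CT + IFNγ replicates 2 or 3, and quantile normalization gave 14. Of 20 assembly factors 8 rose and 0 fell, led by the copper chaperone COX17 (0.66 and 0.91), COA6 (0.62 and 0.88) and COX14 (0.56 and 0.81), and 4 of the 8, COX17 and COA6 among them, remained with length removed.

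Genes of cholesterol and fatty acid synthesis mostly fell where they changed, 10 of 27 (37%) against 2 that rose (7.41%), with a median of -0.33 as deposited and -0.09 after scaling. ACSL4, which activates arachidonate and other long polyunsaturated fatty acids, fell from 8.29, 6.56 and 7.15 FPKM with IFNγ to 3.87, 4.36 and 4.54 FPKM with both agents (-0.66 and -0.45). DHCR7, the last enzyme of cholesterol synthesis, fell from 9.92, 9.76 and 10.01 FPKM with IFNγ to 6.81, 5.47 and 5.96 FPKM with both agents (-0.63 and -0.40). FABP5, a carrier of fatty acids, rose from 124, 140.5 and 119 FPKM with IFNγ to 205, 212 and 204 FPKM with both agents (0.70 and 0.95) and the desaturase-family FADS3 changed by 0.30 and 0.55. Both rises and 5 of the 10 falls, ACSL4 and DHCR7 included, remained with length removed, and the count of falls was 4 without IFNγ replicate 3, and 6 without IFNγ replicate 1, or SB-3CT + IFNγ replicates 2 or 3. The call of DHCR7 was lost after scaling without IFNγ replicate 3 (adjusted p up to 0.0524).

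Of 23 fatty acid oxidation genes 2 rose (8.70%, beside 6.38% of all genes) and 1 fell (4.35%, beside 15.5%). The enoyl-CoA isomerases ECI1 (0.34 and 0.59) and ECI2 (0.38 and 0.63) rose, also with length removed. The gene that fell did not keep its call with length removed. With IFNγ replicates 1 or 3 left out, or SB-3CT + IFNγ replicates 1 or 2, the list had 0 falls. In the list of glycolysis and hypoxia genes 1 of 20 rose (5%) and 4 fell (20%). ANGPTL4, a secreted inhibitor of lipoprotein lipase, rose from 4.2, 3.87 and 4.24 FPKM with IFNγ to 7.03, 6.44 and 6.33 FPKM with both agents (0.57 and 0.79). AK4, a mitochondrial adenylate kinase, fell from 9.44, 7.89 and 8.13 FPKM with IFNγ to 5.69, 5.81 and 5.26 FPKM with both agents (-0.52 and -0.30). None of the 4 falls remained with length removed, where AK4 was at -0.073 (adjusted p = 0.499), and the falls were 1 without IFNγ replicate 1, or SB-3CT + IFNγ replicates 1 or 3, and 2 without IFNγ replicate 3, or SB-3CT + IFNγ replicate 2.

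Genes of DNA replication and its E2F regulators fell without a rise: 13 of 32 fell (40.6%), with a median of -0.40 as deposited and -0.17 after scaling, and 10 of the 13 remained with length removed. CCNE2, the cyclin E2 that drives entry into S phase, fell from 10.1, 9.18 and 9.11 FPKM with IFNγ to 4.62, 4.35 and 4.85 FPKM with both agents. CCNE2 had a log2 change of -0.90 ± 0.076 (SE; limma, adjusted p = 0.00194) as deposited and -0.68 ± 0.062 (adjusted p = 0.00216) after scaling. CLSPN fell from 7.45, 5.53 and 6.89 FPKM with IFNγ to 2.95, 3.19 and 3.08 FPKM with both agents. ATAD2 fell from 12, 9.42 and 10.6 FPKM with IFNγ to 4.21, 5.19 and 5.07 FPKM with both agents. The kinase CDC7 and its partner DBF4, the repressor E2F8, the ubiquitin ligase adaptor DTL and the nucleoside kinase DCK were also among the 10. The falls were 8 without IFNγ replicates 1 or 3. The rises were 1 without IFNγ replicate 1.

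Mitosis and centromere genes moved both ways, with 29 of 70 lower (41.4%) and 8 higher, and 18 and 4 with length removed. ECT2, the exchange factor of cytokinesis, fell from 12.9, 10.04 and 11.5 FPKM with IFNγ to 5.64, 6.09 and 5.37 FPKM with both agents (-0.89 and -0.67). ERCC6L, a helicase of anaphase DNA threads, fell from 4.15, 2.91 and 3.27 FPKM with IFNγ to 1.43, 1.45 and 1.51 FPKM with both agents (-0.84 and -0.67). CKS1B, a small partner of cyclin-dependent kinases, rose from 296, 316 and 296 FPKM with IFNγ to 429.7, 437 and 432 FPKM with both agents (0.52 and 0.77). The falls were 18 without IFNγ replicate 3, and 19 without IFNγ replicate 1. The rises were 2 without IFNγ replicate 3, and 4 without SB-3CT + IFNγ replicates 1, 2 or 3, and 5 without IFNγ replicate 1. For DNA repair, 13 of 34 fell (38.2%) and 3 rose (8.82%), 6 and 2 with length removed. BRIP1, the helicase partner of BRCA1, fell from 2.87, 2 and 2.59 FPKM with IFNγ to 0.911, 1.29 and 1.14 FPKM with both agents (-0.72 and -0.57), and BRCA1 itself changed by -0.82 and -0.62. The call of BRCA1 was lost after scaling without IFNγ replicate 3 (adjusted p up to 0.0513). In the DNA repair list the falls were 6 without IFNγ replicate 3, and 7 without IFNγ replicate 1. The rises were 0 without SB-3CT + IFNγ replicate 3, and 1 without IFNγ replicates 1 or 3, or SB-3CT + IFNγ replicate 2. Among centrosome and cilium genes 21 of 49 fell (42.9%) and 1 rose (2.04%), with 8 and 1 left when length was removed. CEP170, of the mother centriole, changed by -0.84 and -0.63, while ARL3, a GTPase that delivers lipidated proteins to cilia, rose from 14.8, 17.3 and 15.6 FPKM with IFNγ to 19.9, 20.3 and 21.2 FPKM with both agents (0.35 and 0.59). Those falls were 13 without IFNγ replicate 3.

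Chromatin regulators fell in 32 of 66 cases (48.5%) and 0 rose, and 10 of the 32 were left when the length trend was removed. BAZ1A, a subunit of ISWI remodellers, fell from 9.82, 8.63 and 9.08 FPKM with IFNγ to 4.55, 4.96 and 4.32 FPKM with both agents (-0.86 and -0.64), and the ARID proteins ARID4B (-0.81 and -0.63) and ARID5B (-0.78 and -0.60) fell too, all 3 also with length removed. The median transcript of this list was 6052 nucleotides. Among all genes of at least 1 FPKM over 6000 nucleotides, 49.7% fell and 1.84% rose, so the list's share is near that of its length class. Its count was 18 without IFNγ replicates 1 or 3, and 20 without SB-3CT + IFNγ replicates 1 or 3.

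RNA helicases also fell without a rise, 23 of 47 (48.9%), with a median of -0.47 as deposited and -0.24 after scaling. The falls were of the DDX and DHX families, apart from AQR and DICER1, and 15 of the 23 remained with length removed. DDX3X, which helps to start translation of structured mRNAs, fell from 87.4, 70.4 and 61.2 FPKM with IFNγ to 35.5, 40.8 and 36.5 FPKM with both agents (-0.93 and -0.68). DHX36, which unwinds G-quadruplexes, fell from 18.5, 14 and 15.6 FPKM with IFNγ to 7.55, 8.29 and 9.32 FPKM with both agents (-0.85 and -0.62). The splicing cofactor DDX17 fell from 30.8, 24.5 and 30.7 FPKM with IFNγ to 15.7, 16.2 and 16.5 FPKM with both agents (-0.79 and -0.54). The count was 14 without IFNγ replicates 1 or 3. In mRNA processing and export 12 of 37 fell (32.4%) and 3 rose (8.11%), 3 and 2 with length removed. The cleavage endonuclease CPSF3 fell from 22.6, 19.9 and 19.9 FPKM with IFNγ to 11.9, 12.9 and 13.3 FPKM with both agents (-0.67 and -0.43) and the splicing factor CDC5L changed by -0.72 and -0.51, the latter not called with length removed, at -0.31 (adjusted p = 0.053). The falls were 6 without IFNγ replicates 1 or 3. The rises were 0 without IFNγ replicates 1 or 3, or SB-3CT + IFNγ replicate 2, and 1 without SB-3CT + IFNγ replicate 3.

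In ribosome biogenesis 10 of 33 fell (30.3%) and 2 rose (6.06%), 5 and 2 with length removed. CEBPZ, a nucleolar factor, fell from 20.7, 19.7 and 20.8 FPKM with IFNγ to 11, 11.6 and 10.5 FPKM with both agents (-0.83 and -0.60). The nucleolar helicase DDX21 fell from 62.3, 49.5 and 57.7 FPKM with IFNγ to 30.7, 37.8 and 33.8 FPKM with both agents (-0.71 and -0.46). EMG1, a methyltransferase of ribosomal RNA, rose from 165, 175 and 165 FPKM with IFNγ to 224, 223 and 219 FPKM with both agents (0.40 and 0.65). The exosome subunit EXOSC1 rose from 40.8, 46.1 and 41.2 FPKM with IFNγ to 58.6, 58.7 and 59.7 FPKM with both agents (0.46 and 0.71). The falls were 5 without IFNγ replicate 3. The rises were 4 without IFNγ replicate 2, or SB-3CT + IFNγ replicate 1. Of 49 translation factors 9 fell (18.4%, beside 15.5% of all genes) and 6 rose (12.2%, beside 6.38%), 6 and 4 with length removed. EIF5B fell from 18.5, 13.9 and 17.2 FPKM with IFNγ to 7.47, 8.45 and 8.01 FPKM with both agents, and the scaffold EIF4G3 changed by -0.81 and -0.58. EEF1B2, which recharges the elongation factor with GTP, rose from 423, 446 and 429.5 FPKM with IFNγ to 603, 618 and 574 FPKM with both agents (0.47 and 0.72). EIF6, which keeps the large subunit apart until it is mature, rose from 556, 694 and 589 FPKM with IFNγ to 857, 822 and 829.6 FPKM with both agents (0.45 and 0.71). These falls were 6 to 10 with 1 sample left out. The rises were 3 without IFNγ replicate 3, or SB-3CT + IFNγ replicates 2 or 3, and quantile normalization gave 17 falls and 2 rises.

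In the list of ubiquitin ligases and their regulators, cullins among them, 17 of 51 genes fell (33.3%) and 3 rose (5.88%). With length removed 6 falls and all 3 rises remained. The list's median transcript was 4547 nucleotides, and 36.9% of genes of at least 1 FPKM from 4000 to 6000 nucleotides fell. CAND1, which exchanges the substrate receptors of cullin ligases, fell from 23.5, 18.9 and 22.3 FPKM with IFNγ to 10.6, 12.3 and 12 FPKM with both agents (-0.83 and -0.60). The scaffold CUL2 fell from 13.2, 11.8 and 12 FPKM with IFNγ to 6.46, 6.57 and 7.01 FPKM with both agents (-0.79 and -0.56). CDC34, a ubiquitin-conjugating enzyme, rose from 68.7, 71.7 and 68.1 FPKM with IFNγ to 89.8, 85.3 and 89.8 FPKM with both agents (0.34 and 0.59). The falls were 6 without IFNγ replicate 3, and 10 without IFNγ replicate 1, and 11 without SB-3CT + IFNγ replicates 1 or 3. The rises were 1 without IFNγ replicate 3, or SB-3CT + IFNγ replicate 3. Of chaperonins and co-chaperones 6 of 48 fell (12.5%, beside 15.5% of all genes) and 2 rose (4.17%, beside 6.38%), 2 and 1 with length removed. As deposited 2 were higher and 19 lower, and after scaling 11 were higher and 6 lower. DNAJC2, a ribosome-bound co-chaperone, fell from 13.4, 11.1 and 13 FPKM with IFNγ to 6.92, 6.94 and 8.28 FPKM with both agents (-0.69 and -0.46). DNAJC19, of the mitochondrial import motor, rose from 28.8, 36.9 and 30.5 FPKM with IFNγ to 48.1, 46.7 and 49.1 FPKM with both agents (0.57 and 0.82). The falls were 1 without IFNγ replicates 1 or 3, and 3 without SB-3CT + IFNγ replicates 1 or 3. The rises were 1 without IFNγ replicates 1 or 3, or SB-3CT + IFNγ replicates 2 or 3.

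Subunits of the lysosomal proton pump went both ways in the list of 56 autophagy and lysosome genes, of which 5 rose and 5 fell (8.93% each). With length removed 4 of these rises and 3 of the falls remained. The small subunits ATP6V0E1 (0.49 and 0.75) and ATP6V1G1 (0.41 and 0.66) rose and kept their call with length removed, whereas ATP6V1F (0.45 and 0.70) did not, at 0.14 (adjusted p = 0.0572). ATP6V1A, the catalytic subunit, fell from 26.1, 21.9 and 24 FPKM with IFNγ to 14.8, 16 and 14.5 FPKM with both agents (-0.63 and -0.39), also with length removed. The falls were 1 without SB-3CT + IFNγ replicate 1, and 2 without IFNγ replicates 1 or 3, or SB-3CT + IFNγ replicates 2 or 3.

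Among 93 vesicle traffic genes 22 fell (23.7%, beside 15.5% of all genes) and 6 rose (6.45%, beside 6.38%), and 9 and 2 with length removed. The list's median transcript was 3542 nucleotides, and 24.9% of genes of at least 1 FPKM from 3000 to 4000 nucleotides fell. The endosomal tether EEA1 fell from 5.33, 4.73 and 4.96 FPKM with IFNγ to 2.44, 2.61 and 2.75 FPKM with both agents (-0.74 and -0.55). DNM1L, which divides mitochondria, fell from 20.4, 18.4 and 20.1 FPKM with IFNγ to 10.6, 12.2 and 10.4 FPKM with both agents (-0.77 and -0.54). CHMP5, of the ESCRT machinery, rose from 77.4, 77.6 and 80.1 FPKM with IFNγ to 91.9, 104 and 102 FPKM with both agents (0.33 and 0.59). AP2S1, the small subunit of the clathrin adaptor AP2, changed by 0.33 and 0.58 but was not called with length removed, at 0.061 (adjusted p = 0.428), and under quantile normalization its scaled change was -0.040. The falls were 13 without IFNγ replicate 1. The rises were 3 without IFNγ replicate 1, or SB-3CT + IFNγ replicates 1, 2 or 3. In the actin list 8 of 42 fell (19%) and 1 rose (2.38%), 4 and 0 with length removed. The actin binders CALD1 (-0.93 and -0.69), ANLN (-0.82 and -0.58) and DIAPH3 (-0.65 and -0.50) fell, also with length removed. ARPC3, of the ARP2/3 complex, rose from 261, 289 and 268 FPKM with IFNγ to 338, 364 and 357 FPKM with both agents (0.37 and 0.63) but was at 0.17 (adjusted p = 0.0538) with length removed. The actin rises were 2 without IFNγ replicate 1.

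Adhesion and receptor genes fell without a rise. In the adhesion and collagen list 10 of 35 fell (28.6%), among them CTNND1, p120-catenin, from 28.2, 22.2 and 25.3 FPKM with IFNγ to 13.8, 14.8 and 13.8 FPKM with both agents (-0.79 and -0.55). CTNNB1, beta-catenin, fell from 100.05, 79 and 88.9 FPKM with IFNγ to 51.4, 57.3 and 54.4 FPKM with both agents (-0.70 and -0.45). N-cadherin, CDH2, fell from 13.4, 11.5 and 12.4 FPKM with IFNγ to 6.67, 7.59 and 7.44 FPKM with both agents (-0.70 and -0.47). Of 37 growth and guidance receptors and their ligands 12 fell (32.4%), with EPHA3, F2R and the ephrin EFNB2 (-0.65 and -0.43) in the lead. Each list kept 4 falls with length removed, and all the genes named here were among them. The median transcripts of the 2 lists were 5888 and 4557 nucleotides. Among all genes of at least 1 FPKM from 4000 to 6000 nucleotides 36.9% fell, so neither share is a result beyond its length class. Only 21 of the 35 adhesion genes and 25 of the 37 receptor genes reached a mean of 1 FPKM. The falls were 6 without SB-3CT + IFNγ replicate 3 for adhesion, and 6 without IFNγ replicate 1 for receptors. The MAPK output list had 7 of 27 lower (25.9%) and 0 higher, with 2 left when length was removed, ETV1 (-0.82 and -0.62) and ELK3 (-0.60 and -0.37), both ETS factors. The list's median transcript was 3946 nucleotides, and its share is near the 24.9% that fell from 3000 to 4000 nucleotides. The MAPK falls were 2 without IFNγ replicate 3, and 3 without IFNγ replicate 1. Of 14 AKT and mTOR regulators 5 fell (35.7%), among them CAB39 (-0.63 and -0.40), which activates the kinase LKB1, and CLIP1 (-0.72 and -0.49), a microtubule plus-end protein, and EIF4EBP1 was the 1 that rose. CAB39 and EIF4B remained lower with length removed, and the falls were 4 to 5 with 1 sample left out.

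Death genes moved in small numbers and both ways, 4 of 39 higher and 4 lower (10.3% each), 3 and 2 with length removed. CRADD, an adaptor of caspase-2, rose from 12.3, 14.7 and 14.4 FPKM with IFNγ to 19.5, 18.2 and 18 FPKM with both agents (0.41 and 0.65). APAF1, which builds the apoptosome around cytochrome c, fell from 2.89, 2.74 and 2.85 FPKM with IFNγ to 1.4, 1.55 and 1.59 FPKM with both agents (-0.61 and -0.44). The apoptosis falls were 1 without IFNγ replicates 1 or 3, or SB-3CT + IFNγ replicates 1 or 3. Of 17 p53 targets 1 rose (5.88%, beside 6.38% of all genes) and 2 fell (11.8%, beside 15.5%), so the shares are no result about the list. CDKN1A, the cell-cycle inhibitor p21, rose from 285, 266 and 273 FPKM with IFNγ to 356, 337 and 327 FPKM with both agents (0.31 and 0.56), also with length removed. In Control CDKN1A stood at 392, 390 and 402 FPKM, above both groups. APAF1 and the repressor E2F7 (-0.62 and -0.41) fell. Of these falls only that of APAF1 remained with length removed. The p53 list's rises were 2 without SB-3CT + IFNγ replicate 2.

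Of the interferon response genes 22 of 47 fell (46.8%) and 2 rose, with a median of -0.43 as deposited and -0.17 after scaling. With the length trend removed 16 falls and 0 rises remained, and the median was -0.21. The falls covered RNA sensing (DDX58, DDX60, DHX58, EIF2AK2, ADAR), butyrophilins of the BTN3A family, the peptidase ERAP1 and apolipoproteins L. The log2 change of IFNγ against Control was 3.11 for DDX58, 2.15 for DDX60 and 1.21 for EIF2AK2 as deposited, values that share the IFNγ samples with the comparison here. Members of the BTN3A and APOL families are close copies, and their reads may have been shared between copies. The list's falls were 16 to 21 with 1 sample left out. Its rises were 1 without IFNγ replicate 3.

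Both interferon genes that rose were chemokines. CCL2, which draws monocytes, measured 13.3, 15.2 and 12.2 FPKM in the 3 IFNγ samples and 17.6, 22.6 and 21 FPKM in the 3 SB-3CT + IFNγ samples (0.55 and 0.80). CXCL10, which draws T cells through CXCR3, rose from 78.7, 86.2 and 80.3 FPKM with IFNγ to 96.5, 117 and 122 FPKM with both agents (0.44 and 0.70). With length removed their changes were 0.28 (adjusted p = 0.0968) and 0.32 (adjusted p = 0.0529). The call of CXCL10 was lost on the deposited scale without IFNγ replicates 1 or 3 (adjusted p up to 0.0543). CD274, which encodes PD-L1 (chr9:5450503-5470566), measured 23.9, 19.3 and 21.9 FPKM in the 3 IFNγ samples and 13.5, 14.4 and 16.2 FPKM in the 3 SB-3CT + IFNγ samples. CD274 had a log2 change of -0.53 ± 0.095 (SE; limma, adjusted p = 0.00542) as deposited and -0.28 ± 0.078 (adjusted p = 0.032) after scaling. The groups did not overlap, as was so on both scales for 1143 of the 4918 genes in the lower direction and 460 in the higher. With length removed the change of CD274 was -0.21 (adjusted p = 0.0969). The call of CD274 was lost after scaling without IFNγ replicates 1 or 3, or SB-3CT + IFNγ replicates 1 or 2 (adjusted p up to 0.12).

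On a single scale the balance of higher and lower calls turned with the scaling in 9 of the lists. The counts were 5 higher and 18 lower as deposited against 15 and 5 after scaling for autophagy and lysosome, 4 higher and 9 lower as deposited against 13 and 4 after scaling for apoptosis, and 6 higher and 22 lower as deposited against 14 and 9 after scaling for translation factors. They were 1 higher and 23 lower as deposited against 9 and 8 after scaling for actin, 2 higher and 16 lower as deposited against 11 and 10 after scaling for ribosome biogenesis, and 2 higher and 5 lower as deposited against 10 and 1 after scaling for fatty acid oxidation. For aminoacyl-tRNA synthetases they were 1 higher and 4 lower as deposited against 6 and 2 after scaling, and for p53 targets 1 higher and 3 lower as deposited against 6 and 2 after scaling. The chaperone list, given above, is the other one.

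**Figure D4:**
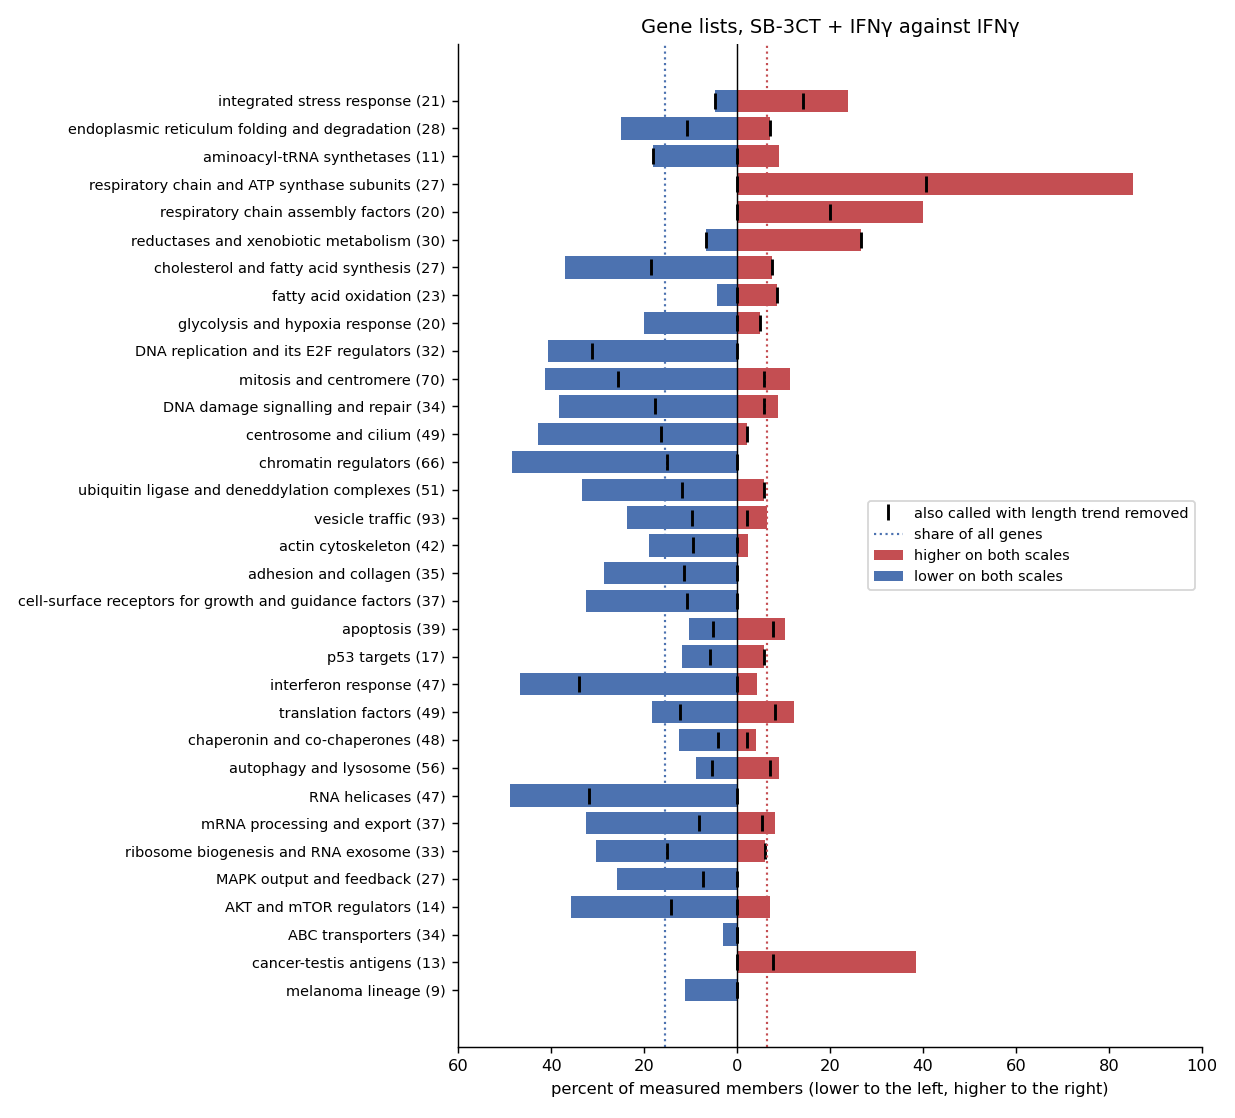
Percent of the measured members (number in brackets) of each of the 33 gene lists that rose (red, to the right) or fell (blue, to the left) on both scales, with black ticks at the percent also called with the length trend removed and dotted lines at the shares of all genes, 6.38% and 15.5%. Respiratory chain subunits have the longest red bar, and RNA helicases, chromatin regulators and the interferon response the longest blue bars.

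Of 13 cancer-testis antigens 5 rose (38.5%), CT45A1, CT45A6 (0.44 and 0.66) and CT45A3 (0.43 and 0.64) with CSAG1 and CSAG3. Only CT45A1 remained with length removed, the CT45A genes are near-identical copies, and the count was 1 without IFNγ replicate 1, or SB-3CT + IFNγ replicates 2 or 3, and 3 without IFNγ replicate 3, or SB-3CT + IFNγ replicate 1. The call of CT45A6 was lost on the deposited scale without IFNγ replicates 1 or 3, or SB-3CT + IFNγ replicates 1 or 2 (adjusted p up to 0.124), and after scaling without IFNγ replicates 1 or 3, or SB-3CT + IFNγ replicates 1 or 2 (adjusted p up to 0.0719). The call of CT45A3 was lost on the deposited scale without IFNγ replicates 1 or 3, or SB-3CT + IFNγ replicates 1, 2 or 3 (adjusted p up to 0.131), and after scaling without IFNγ replicates 1 or 3, or SB-3CT + IFNγ replicates 1 or 2 (adjusted p up to 0.0745). Of 9 melanoma lineage genes 1 fell (11.1%, beside 15.5% of all genes). It was the receptor ERBB3, from 45.3, 43.8 and 41.6 FPKM with IFNγ to 31.9, 29 and 31.7 FPKM with both agents (-0.48 and -0.24), but it was at -0.027 (adjusted p = 0.834) with length removed. The call of ERBB3 was lost after scaling without IFNγ replicates 1 or 2, or SB-3CT + IFNγ replicates 1, 2 or 3 (adjusted p up to 0.0775). The lineage label was met in part: ERBB3 and CSPG4 reached 45.3 and 37.7 FPKM, whereas 3 of the 9, the pigment enzyme DCT, CAPN3 and ABCB5, stayed under 1 FPKM in all 6 samples. Of 34 ABC transporters 1 fell (2.94%, beside 15.5% of all genes). This was ABCE1 (-0.58 and -0.34), which recycles ribosomes, and it was at -0.24 (adjusted p = 0.065) with length removed. The call of ABCE1 was lost after scaling without IFNγ replicates 1, 2 or 3, or SB-3CT + IFNγ replicate 3 (adjusted p up to 0.0852).

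Markers of other cell types did not move on both scales, 0 of 20 measured. The 5 T and B cell markers summed to 0.0478 to 0.28 FPKM with IFNγ and 0.175 to 0.394 FPKM with both agents. The 4 fibroblast markers summed to 0.577 to 0.646 and 0.231 to 0.502 FPKM, and the 4 endothelial markers to 0.447 to 0.758 and 0.43 to 0.596 FPKM. Of the 4 myeloid and 3 epithelial markers only CD68 and CLDN4, which other cells also express, passed 1 FPKM, with highest values of 31.6 and 8.82 FPKM.

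SB-3CT also changed many of these genes in cells without IFNγ, in a comparison with Control that shares no sample with the main one. Of the 314 genes that rose, 53 (16.9%) also rose and 6 fell with SB-3CT alone, beside 5.23% of all genes higher on both scales there. The share was not particular to these genes: of the 497 genes higher only after scaling, 97 (19.5%) rose with SB-3CT alone. Of the 760 that fell, 138 (18.2%) also fell and 4 rose, beside 5.96% of all genes lower. Of the 787 genes lower only as deposited, 59 (7.5%) fell. The counts of 53 and 138 rested on single samples: with 1 of the 6 samples left out they were 13 to 70 and 8 to 252. The shares of all genes then went from 0.63% to 6.14% higher and from 0.366% to 9.23% lower. The counts were 70 and 252 without SB-3CT replicate 1, 19 and 11 without SB-3CT replicate 2, and 15 and 9 without SB-3CT replicate 3. Leaving out Control replicates 1, 2 and 3 in turn gave 18 and 12, 15 and 8, and 13 and 8. Across the 3145 genes of at least 1 FPKM the 2 changes had a Pearson correlation of 0.45 as deposited and 0.46 after scaling, as a description.

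Genes of stress and of reduction changed with SB-3CT in both settings. Without IFNγ, DDIT3 changed by 0.91 as deposited and 0.95 after scaling (adjusted p = 0.00247 and 0.000879), AKR1C1 by 0.90 as deposited and 0.94 after scaling (adjusted p = 0.00201 and 0.000879) and ASNS by 0.66 as deposited and 0.70 after scaling (adjusted p = 0.00247 and 0.000879). CHAC1 changed by 1.17 as deposited and 1.2 after scaling (adjusted p = 0.000533 and 0.000378) and AKR1B10 by 0.77 as deposited and 0.77 after scaling (adjusted p = 0.00897 and 0.0112). Of the 21 stress response genes, 9 rose and 1 fell without IFNγ, and 12 and 3 of the 30 reductase genes. List counts without IFNγ come from the fit whose totals moved with single samples, as given above. EPHA3 fell by 0.81 on the log2 scale as deposited and DHCR7 by 0.91. Without IFNγ 1 of 27 respiratory subunits rose, 3 of 32 replication genes rose and 3 fell, and 1 of 47 interferon genes fell and 2 rose. The change of SB-3CT alone was 0.0016 for DDX58 and -0.018 for DDX60. These genes were near the floor without IFNγ, at 0.512, 0.694 and 0.613 FPKM and 0.492, 0.272 and 0.415 FPKM in Control, from which the log2(FPKM + 1) scale leaves no room for a fall as large as with IFNγ.

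The difference between the 2 SB-3CT changes was fitted over all 12 samples as an interaction term. It was called on both scales for 487 genes, 9.9% of all, among them 160 of the 314 genes that rose (51.0%) and 163 of the 760 that fell (21.4%), counts that use the same samples as the rule for rises and falls. Leaving out 1 sample gave 118 to 176 and 84 to 205. The second count was 84 without Control replicate 2 or IFNγ replicate 1, 94 without IFNγ replicate 3, and 104 without SB-3CT replicate 1 or SB-3CT + IFNγ replicate 1. Over all genes it was 284, 311 and 307 without Control replicate 2, IFNγ replicate 1 and IFNγ replicate 3. It covered 21 of 27 respiratory subunits, 19 of 47 interferon genes and 9 of 32 replication genes, but 1 of 21 stress response genes. ANGPTL4 differed most among the named genes: it changed by 1.80 without IFNγ and by 0.57 with it. In Control it stood at 0.994, 1.11 and 1.06 FPKM, and SB-3CT alone gave 5.71, 6.77 and 6.08 FPKM. With IFNγ it stood at 4.2, 3.87 and 4.24 FPKM, and the combination gave 7.03, 6.44 and 6.33 FPKM.

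**Figure D5:**
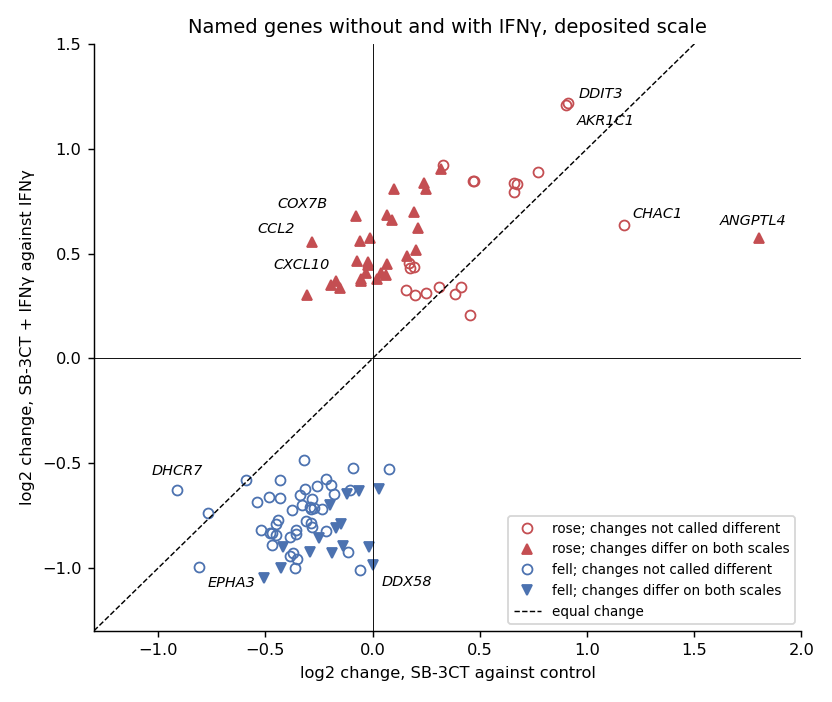
Log2 change in FPKM + 1 of the named genes on the deposited scale, SB-3CT against Control on the x axis and SB-3CT + IFNγ against IFNγ on the y axis, red where the gene rose and blue where it fell with IFNγ, with filled triangles where the 2 changes differed on both scales. DDIT3 and AKR1C1 lie in the upper right on both axes, DDX58 lies at 0.0016 on the x axis and at -0.98 on the y axis, and ANGPTL4 lies farthest to the right.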

How the data were processed

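RNA of A375 cells was sequenced in 12 samples, 3 in each of 4 groups. Per the processing notes of the submitters, the authors aligned reads to hg19 with HISAT2 2.0.5 and estimated expression with StringTie 1.3.3, and they deposited log2(FPKM + 1) values in a table of the whole series. Strand and replicate pooling are not given in the sources used here. FPKM corrects for depth and length, but a shift in a few abundant transcripts moves all values, so a median-ratio scale was added. Genes from A1BG to FAM46B were analysed.

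Groups were compared in limma 3.58.1 (R 4.3.3; lmFit and eBayes with trend, 3 against 3 samples, pseudocount 1, two-sided, no filter), with Benjamini-Hochberg adjustment over 4918 genes. A single-gene exact permutation test of 3 against 3 cannot go below p = 0.1. The length-removed scale first took log2 FPKM relative to the gene's mean log2 FPKM over all 12 samples. Each sample's trend of this ratio on log2 transcript length (spline, 5 df) was removed, and summed FPKM was kept. The trend was fitted on genes with a mean of at least 1 FPKM and above 0 in every sample. Lengths and hg19 positions came from GENCODE release 44 (lifted to GRCh37), found for 99.1% of symbols, and the length StringTie used may differ. Promoters were found for 78.2% of symbols, and printed windows were matched to hg19 at 1 place each. The fits were tested on simulated data. Figures were drawn with matplotlib 3.10.9.

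The members and the 33 gene lists were chosen with earlier results of these data known. The naming rule was the 12 largest rises and falls without overlap between groups and at a mean of at least 1 FPKM, the 3 largest rises and falls of each list, and CD274 and CXCL10. It gave 141 genes, and 109 are named with values. Some items are not reported here. Most of those left out had lost a call when 1 sample was left out, a choice made after their values were seen, as was the naming of other list members without values and of DPM3. Depth is known only as relative depth from the steps of the lowest values, so no counting interval was computed. The same-numbered samples of the groups compared had deviations from their group means that correlated at -0.069, -0.064 and 0.044, so the numbers did not pair the samples. Alternatives covered the pseudocount, a filter on low values, 1 fit over 4 groups, the replicate block, eBayes settings, fold thresholds, a per-gene test, other scalings and leaving out each sample.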

Additional observations from a re-analysis of the deposited data

Results flagged for a closer look

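The log2 changes given by SB-3CT with and without IFNγ differed for 487 genes on both scales, by the interaction term of the limma fit over all 12 samples (adjusted p under 0.05). Of the named genes 44 were among them, 28 with a positive and 16 with a negative difference, given here as the log2 change of SB-3CT + IFNγ against IFNγ minus that of SB-3CT against Control, on the deposited scale. Among genes of respiration the difference was 0.58 for ATP5I, 0.62 for ATP5H, 0.76 for COX7B, 0.71 for C17orf89, 0.57 for COX17, 0.41 for COA6, 0.62 for COX14 and 0.42 for CYCS. Among genes of translation and ribosome making the difference was 0.54 for EEF1B2, 0.61 for EEF1E1, 0.33 for EMG1 and 0.48 for EXOSC1. Among genes of the lysosomal pump, vesicles and cytoskeleton the difference was 0.33 for ATP6V0E1, 0.38 for ATP6V1F, 0.44 for ATP6V1G1, 0.49 for CHMP5, 0.54 for ARPC3, 0.54 for ARL3 and -0.53 for DIAPH3. Among interferon response genes the difference was 0.84 for CCL2, 0.47 for CXCL10, -0.99 for DDX58, -0.88 for DDX60 and -0.74 for EIF2AK2. DDX58 at 0.512, 0.694 and 0.613 FPKM and DDX60 at 0.492, 0.272 and 0.415 FPKM in Control were near the floor, so the same fold with and without IFNγ would also give a negative difference on the log2(FPKM + 1) scale. CXCL10 was at 0, 0 and 0.05 FPKM in Control, where a like limit holds for its positive difference. Among genes of the cell cycle and DNA replication the difference was 0.31 for CKS1B, -0.76 for CLSPN, -0.48 for CCNE2, -0.65 for E2F7 and -0.63 for FAM111A. Among genes of lipid metabolism the difference was 0.50 for FABP5, 0.44 for ECI2 and -1.23 for ANGPTL4. Among genes of chromatin, adhesion and signalling the difference was -0.61 for BAZ1A, -0.64 for ARID4B, -0.50 for CTNNB1, -0.64 for CTNND1, -0.57 for CAB39 and -0.57 for F2R. Among chaperone and death genes the difference was 0.36 for DNAJB9, 0.59 for DNAJC19 and 0.37 for CRADD. Among the remaining named genes the difference was 0.59 for BOLA2B, 0.56 for C19orf33 and -0.54 for BTBD3. A positive value means a change that was higher with IFNγ than without it. ANGPTL4 is negative because its rise was smaller with IFNγ. These 44 genes had been chosen for their change with IFNγ, which enters the difference. No cause was tested.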

How the results depend on the processing

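For SB-3CT + IFNγ against IFNγ, counts are given as higher and lower genes. A fold change over 1.5 with an unadjusted p under 0.05 gave 47 and 320 as deposited, 193 and 57 after scaling and 47 and 57 on both scales, against 315 and 1547, 811 and 760, and 314 and 760. A log2 change over 0.5 with the same p gave 89 and 530, 270 and 128, and 89 and 128. Testing each gene alone, with equal variances assumed and FPKM untransformed, gave 188 and 973 as deposited, 521 higher after scaling and 187 higher on both scales. With the transcript length trend removed in place of median-ratio scaling the counts were 439 and 450, and 183 and 425 in common with the deposited scale. Leaving out 1 sample gave 196 to 331 and 1034 to 1646 as deposited, 497 to 769 and 425 to 693 after scaling, and 196 to 331 and 425 to 693 on both scales. A replicate block, although the numbers did not pair the samples, gave 286 and 1323, 667 and 544, and 285 and 544. SB-3CT against Control called 602 genes as deposited, 259 with the replicate block and 73 to 912 with 1 sample left out. The interaction called 1099 as deposited, 641 after scaling, 1082 with the replicate block and 678 to 1450 with 1 sample left out.

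Of 218 values of 109 named genes, which had been chosen in part for keeping their call with 1 sample left out, 125 kept direction and call under all alternatives run, 92 lost the call under at least 1, and AP2S1 after scaling reversed under quantile normalization, at -0.040 (adjusted p = 0.611). With the replicate block 2 of the 218 lost the call, CD274 (adjusted p = 0.0538) and ERBB3 (adjusted p = 0.0722), both after scaling. Quantile normalization moved list counts by over 1.5 times for stress response rises (5 to 3) and falls (1 to 2), respiratory subunit rises (23 to 14) and falls (0 to 1), melanoma lineage falls (1 to 2), fatty acid oxidation falls (1 to 0), mitosis rises (8 to 5), vesicle rises (6 to 3), mRNA processing rises (3 to 1), translation rises (6 to 2) and falls (9 to 17), actin falls (8 to 15), co-chaperone falls (6 to 11), autophagy falls (5 to 8) and hypoxia falls (4 to 1), and left 0 rises among actin, p53 and AKT and mTOR genes. The replicate block gave 21 falls of chromatin genes in place of 32 and 10 falls and 1 rise of ubiquitin ligase genes in place of 17 and 3, and also moved the hypoxia (4 to 1), apoptosis (4 to 2), autophagy (5 to 3), fatty acid oxidation (1 to 0), melanoma lineage (1 to 0) and co-chaperone falls (6 to 3) and co-chaperone rises (2 to 1). The cause of these moves was not tested. Precision was limited by 3 samples a group and, for genes at low FPKM, by the unknown depth.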
